A study of Mus musculus with 26 samples.

Results

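Chemokines are small secreted proteins that guide moving cells, and 9 genes of that system were followed in sorted mesenchyme of the mouse reproductive tract. They were the ligands Cxcl12, Cxcl14, Cxcl16, Cxcl1, Ccl2, Ccl7 and Ccl11 and the receptors Cxcr4 and Ackr3. The members were found by symbol in each of the 2 gene count tables, and all 9 were among the 41442 gene rows of each table. A low-count filter kept 17858 fetal and 16195 uterine genes for testing, among them 8 of the 9 members in the fetal table, all but Ccl7, and 9 of the 9 in the uterine table.

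The cells came from mice in which a Cre recombinase switches on the red fluorescent protein Tomato from the Rosa locus. In Gli1-CreER; Rosa-Tomato embryos, the Cre is driven by Gli1, a hedgehog target gene, and acts only with tamoxifen, given to the dam at 1 mg on E12.5 and again on E13.5 (embryonic days). The marked Gli1+ cells are thus cells that expressed Gli1 around those days, and their descendants. In Amhr2-Cre; Rosa-Tomato embryos, the Cre is driven by Amhr2, the receptor gene of anti-Müllerian hormone, and the labels give the same tamoxifen treatment. Gli1+ cells were sorted from the mesonephros, which carries the Wolffian and Müllerian ducts, of female and male embryos at E14.5 and E16.5. Amhr2+ and Gli1+ cells were also sorted from female uterus, named neonatal in the labels and aged E19.5. Each of the 6 groups had 3 RNA-seq libraries. The labels do not say whether libraries came from single embryos, pools or separate litters, so p-values measure the spread between these libraries, which may in part be technical.

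Chemokine ligands form gradients that cells read through receptors of the G protein-coupled family. CXCL12 acts through CXCR4, while the atypical receptor ACKR3 binds the same ligand and clears it from the surroundings. In the embryo this axis is known for guiding primordial germ cells to the gonad and for shaping vessels and the niches of blood-forming cells. The inflammatory ligands CXCL1, CCL2, CCL7 and CCL11 are known for drawing in neutrophils, monocytes and eosinophils, and stromal cells can make all of them.

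Totals ranged from 23382983 to 64602477 counts in fetal and from 28709191 to 37541045 counts in uterine libraries. Levels are given as CPM, counts scaled to a common library size by TMM. On that scale 3 counts, the floor, equal 0.0485 to 0.126 CPM for the fetal set and 0.0778 to 0.102 CPM for the uterine set. Differences are log2 fold changes from the quasi-likelihood test of edgeR, with standard errors (SE) and Benjamini-Hochberg adjusted p-values over all tested genes. A gene was called at an adjusted p under 0.05. The 8 general mesenchyme genes checked summed to 26600 to 65000 CPM in every library. Gli1 itself stood at 184 ± 0.295 CPM in E14.5 females, 228 ± 17 in E14.5 males, 50.7 ± 2.88 in females of E16.5 and 208 ± 13.3 in the males (SD, n = 3). In the uterus Gli1 stood at 17.9 ± 2.85 CPM in Gli1+ and 10.5 ± 2.63 in Amhr2+ cells, and Amhr2 at 4.1 ± 0.997 and 11.1 ± 4.31 CPM (SD, n = 3). E16.5 male replicate 1 and the uterine Gli1+ replicates 2 and 3 stood apart in immediate-early genes, with values given beside Cxcl1. E14.5 female replicate 3 stood apart in erythroid markers, which summed to 979 CPM over 8 genes against 6.08 to 55.8 CPM in the other fetal libraries. Within its group that library had the highest Cxcl12 and Cxcr4 and the lowest Ccl2. Without it 1 member was called for sex at E14.5 in place of 2, and 5 for age in females in place of 7. Over all genes, calls for sex at E14.5 then fell from 462 to 259 higher and from 659 to 394 lower in females. Those for age in females fell from 3746 to 3168 rising and from 3322 to 2636 falling. Leaving out E14.5 female replicate 2 also ended the age calls of Cxcl1 and Ackr3 in females (adjusted p = 0.0715 and 0.0904 in edgeR). In these bulk libraries, fewer cells of a type and less RNA per cell cannot be told apart.

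Between the sexes the members did not move as 1 block. At E16.5, Cxcl14 and Ackr3 were 3.67-fold and 2.76-fold lower in females, while Ccl2, Cxcl16 and Ccl11 were 4.24-fold, 1.86-fold and 1.71-fold higher in females. From E14.5 to E16.5 the ligands Cxcl12, Cxcl14, Cxcl16 and Ccl11 rose in both sexes. In the uterus, Amhr2+ cells held less Cxcl12, Cxcl16, Ccl2, Ccl7 and Ccl11 and more Cxcl14, Cxcr4 and Ackr3 than Gli1+ cells.

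At E14.5, 2 of the 8 tested members were called for sex, Cxcl14 and Ackr3, both lower in females. Of all tested genes, 6.28% were called in that comparison, 2.59% higher and 3.69% lower in females. At E16.5, 5 of 8 were called, 3 higher and 2 lower in females, against 27.3% of all tested genes, 13.2% higher and 14.1% lower. The median log2 difference of the tested members, female minus male, was -0.65 at E14.5 and 0.28 at E16.5, against -0.01 and 0.01 over all tested genes. With age, 7 of 8 were called in females, 6 higher and 1 lower at E16.5, against 39.6% of all tested genes, 21.0% higher and 18.6% lower. In males 5 of 8 were called, 4 higher and 1 lower at E16.5, against 23.3%, 13.1% higher and 10.2% lower. The medians were 1.64 in females and 0.61 in males, against 0.00 and -0.01. The male count was 3 when any of E14.5 male replicates 1 and 2 or E16.5 male replicates 1, 2 and 3 was left out, and 3 in a fit of only the 6 male libraries. In females the age calls of Cxcl1 and Ackr3 were lost in 6 and 5 of 12 alternative runs, most with 1 library left out. The other female age calls were kept in all of them. The sex and the age contrasts share libraries, so their values are not separate evidence.

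**Figure D1:**
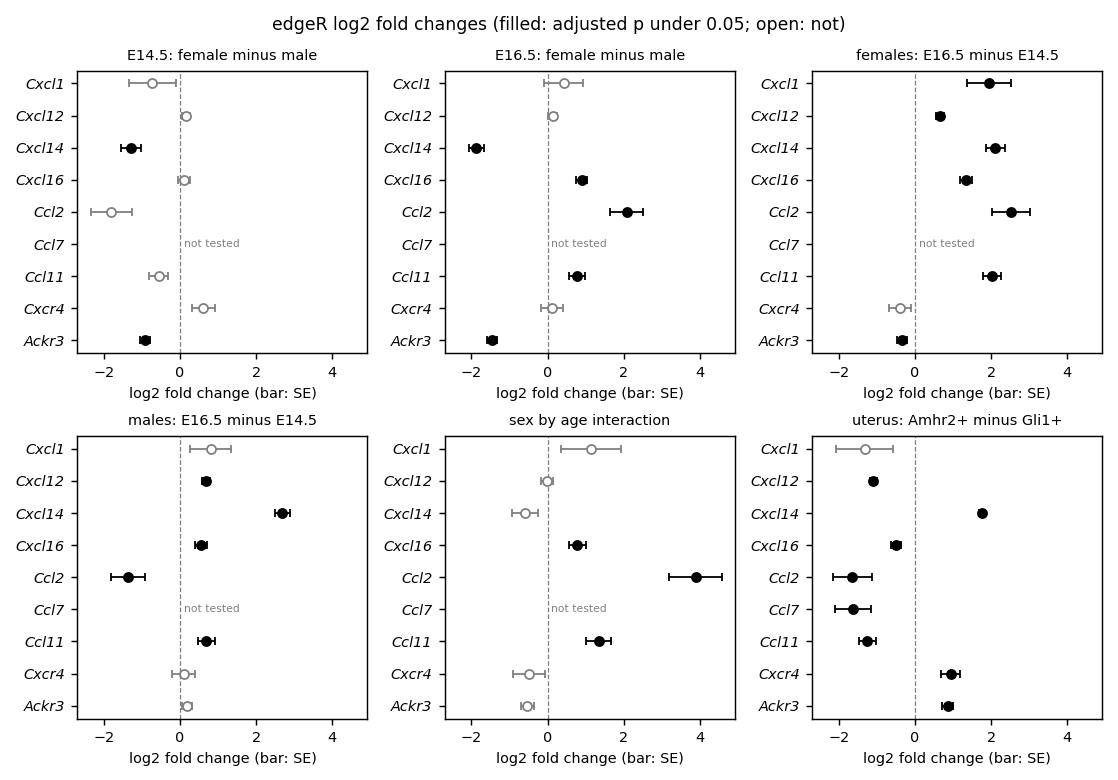
Log2 fold changes (x axis) of the 9 chemokine genes (y axis) in the 6 comparisons, with bars of 1 SE; filled points had an adjusted p under 0.05 in edgeR, and Ccl7 was not tested in fetal libraries. Cxcl14 and Ackr3 lie left of 0 in both sex comparisons and right of 0 in the uterus.

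In CPM, Cxcl12 had the highest level of the 9 genes in every group. In E14.5 females its level was 385, 391 and 459 CPM in replicates 1, 2 and 3, and in E14.5 males 374, 323 and 410 CPM. At E16.5 it was 644, 649 and 654 CPM in females and 699, 545 and 530 CPM in males. All 6 libraries of E16.5 lie above all 6 of E14.5, and the sexes overlap at both ages. The sum of the 8 mesenchyme genes was also higher with age without overlap, at 34000 to 41700 CPM at E14.5 and 45900 to 65000 CPM at E16.5. Most of that sum came from the collagen genes Col1a1, Col1a2 and Col3a1. Of those 8 genes, 4 rose and 2 fell in females, and 5 rose and 2 fell in males, and their part in the Cxcl12 rise was not tested. Cxcl12 rose with age by 0.66 on the log2 scale in females (SE 0.108, adjusted p = 0.000232 in edgeR) and by 0.68 in males (SE 0.108, adjusted p = 0.000253 in edgeR). The female minus male difference was 0.16 at E14.5 (95% interval -0.07 to 0.39) and 0.13 at E16.5 (-0.09 to 0.36), and neither passed the test. Without E16.5 male replicate 1, the highest of the males, the E16.5 sex difference was 0.27 with an adjusted p of 0.0357 in edgeR.

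In the uterus, the Cxcl12 level was 268, 288 and 249 CPM in Amhr2+ and 587, 622 and 514 CPM in Gli1+ libraries. Every Gli1+ library was above every Amhr2+ library, and the difference, Amhr2+ minus Gli1+, was -1.10 (SE 0.0879, adjusted p = 0.000103 in edgeR). The call held in every alternative run, with values from -1.17 to -1.02. Beside it, 5 of 8 mesenchyme genes were lower in Amhr2+ cells and none was higher. The summed level of the 8 was 26600 to 28500 CPM against 54900 to 61800 in Gli1+. Most of that sum came from the collagen genes Col1a1, Col1a2 and Col3a1, each lower in Amhr2+. Pdgfra, at 579 against 564 CPM, and Pdgfrb, at 505 against 500 CPM, were not called. Epithelial markers were higher in Amhr2+, at 72.5 to 75 against 32.4 to 44.4 CPM summed over 9 genes, with 4 of 8 tested called higher. The part of these in the Cxcl12 difference was not tested.

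Cxcr4, the signalling receptor for CXCL12, and Ackr3, the atypical receptor, both lie on chromosome 1. The 300 bases around their starts, 250 before and 50 after, are shown because they are the receptors of 1 ligand and their levels differed. Both hold the letters TATAAA, in capitals, searched on both strands and found in 14.2% of 27025 promoters of the same length. In Cxcr4 the capitals cover 2 overlapping matches, at 32 and 30 bases before the start, and in Ackr3 1 match at 8 bases before it. Sequences are from RefSeq on GRCm38.p6, the assembly also called mm10, and run 5′ to 3′ on the gene's strand.
Cxcr4, minus strand, chr1:128592250-128592549: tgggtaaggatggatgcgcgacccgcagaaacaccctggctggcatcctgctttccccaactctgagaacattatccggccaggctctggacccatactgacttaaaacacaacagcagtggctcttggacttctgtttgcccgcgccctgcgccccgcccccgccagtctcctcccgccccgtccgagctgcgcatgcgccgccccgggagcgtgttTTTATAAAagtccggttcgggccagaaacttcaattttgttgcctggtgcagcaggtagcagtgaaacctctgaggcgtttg
Ackr3, plus strand, chr1:90203730-90204029: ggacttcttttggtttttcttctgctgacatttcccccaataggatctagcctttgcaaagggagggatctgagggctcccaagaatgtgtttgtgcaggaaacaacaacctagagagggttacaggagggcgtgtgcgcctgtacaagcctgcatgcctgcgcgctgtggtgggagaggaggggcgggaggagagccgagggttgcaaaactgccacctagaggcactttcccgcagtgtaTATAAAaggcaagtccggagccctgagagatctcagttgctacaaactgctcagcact

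Ackr3 was the more abundant receptor throughout. Its level in replicates 1, 2 and 3 was 11.1, 12.2 and 13.6 CPM in E14.5 females and 19.6, 22.7 and 27.9 CPM in males of the same age. E16.5 levels were 8.74, 11.2 and 9.09 CPM in females and 27.4, 25.4 and 27.1 CPM in males. At both ages every male library was above every female library. The female minus male difference was -0.93 at E14.5 (SE 0.126, adjusted p = 0.000299 in edgeR) and -1.46 at E16.5 (SE 0.125, adjusted p = 3.35e-07 in edgeR), and both calls held in every alternative run. The widening of that difference with age was -0.53 (SE 0.177) and did not pass the test, with an adjusted p of 0.0738 in edgeR. With replicate numbers as a block it was -0.55 with an adjusted p of 0.0136, and DESeq2 gave 0.0343. With age, in females Ackr3 fell by 0.35 (log2) (SE 0.13, adjusted p = 0.0441 in edgeR), although the groups overlap, and the call was lost without E14.5 female replicate 2 or 3 or E16.5 female replicate 1 or 3, and with no low-count filter (adjusted p = 0.0506). In males the age difference was 0.18 (95% interval -0.08 to 0.44).

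Smooth muscle genes, named for the contractile layer of the duct wall, were also higher in males, with 3 of 5 called at E14.5 and 4 of 5 at E16.5. Their summed level at E16.5 was 464 to 564 CPM in females and 1700 to 2860 CPM in males, with none at 0. Myh11, the myosin heavy chain of smooth muscle, stood at 15.5 ± 1.76 CPM in females and 315 ± 88.7 in males at E16.5 (SD, n = 3). Epithelial markers summed over 9 genes were higher in every male library as well, at 46.4 to 55.1 against 32.2 to 36.5 CPM at E14.5 and 34.1 to 41.1 against 24.7 to 33 CPM at E16.5. At each age 1 of the 9 was called, Krt18, higher in males. The part of smooth muscle and epithelium in the sex differences of Ackr3 and Cxcl14 was not tested. In the uterus the smooth muscle genes summed to 1120 to 1760 CPM in Amhr2+ and 2090 to 2320 CPM in Gli1+ libraries, and Ackr3 and Cxcl14 were higher in Amhr2+.

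In the uterus, the Ackr3 level was 49.8, 46.8 and 69.4 CPM in Amhr2+ and 30.8, 29.8 and 30.9 CPM in Gli1+ libraries. All Amhr2+ libraries lie above all Gli1+ libraries, and Ackr3 was 1.81-fold higher in Amhr2+ (log2 0.86, SE 0.14, adjusted p = 0.00405 in edgeR). Ackr3 was called in every alternative run here too.

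Cxcr4 was low in all groups. Its level in replicates 1, 2 and 3 was 1, 1.47 and 2.03 CPM in E14.5 females, 0.673, 1.1 and 1.08 in the males of that age, 1.22, 1.33 and 0.859 in females of E16.5 and 0.726, 1.18 and 1.21 in their male counterparts. These 4 groups overlap, and no fetal comparison of Cxcr4 passed the test. The intervals are wide: the female minus male difference at E14.5 was 0.61 (95% interval -0.03 to 1.24) and at E16.5 0.12 (-0.49 to 0.74). In the uterus Cxcr4 was 2.59, 2.62 and 1.63 CPM in Amhr2+ and 1.16, 1.36 and 1.06 CPM in Gli1+ libraries. It was 1.92-fold higher in Amhr2+ without overlap (log2 0.94, SE 0.249, adjusted p = 0.0278 in edgeR). That call was lost without Amhr2+ replicate 1 or 2 or Gli1+ replicate 1 or 3.

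Levels of different genes were compared per kilobase of exon. On that scale the within-library ratio of Ackr3 to Cxcr4 was 3.95 to 6.54 in E14.5 females and 4.22 to 6.23 in E16.5 females. It was 12.2 to 17.2 in E14.5 males and 12.7 to 22.2 in E16.5 males. The ranges of the sexes do not overlap at either age. In the uterus the ratio was 10.5 to 25.1 in Amhr2+ and 12.9 to 17.2 in Gli1+ libraries, where the ranges overlap.

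**Figure D2:**
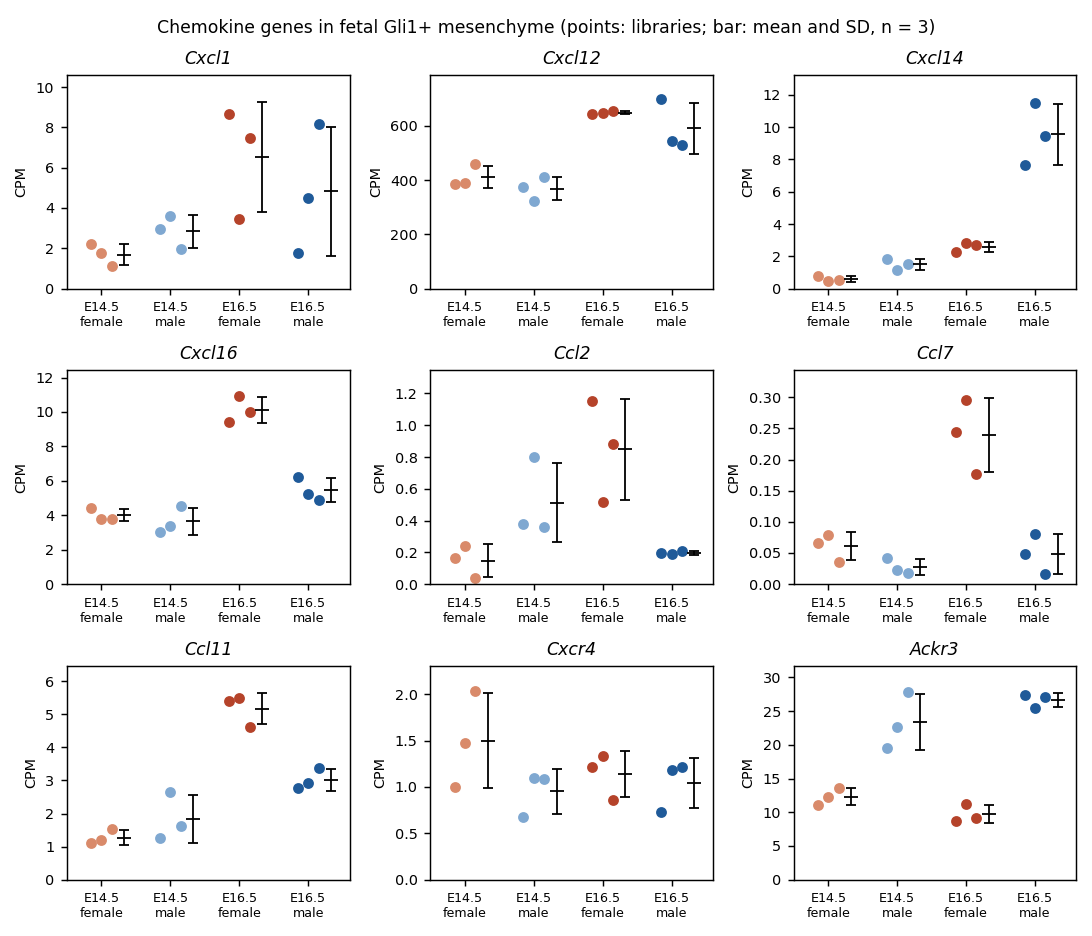
CPM (y axis, linear, from 0) of the 9 chemokine genes in the 12 fetal Gli1+ libraries by sex and age; points are libraries and the bar is the mean with SD, n = 3. Ackr3 lies between 8.74 and 13.6 CPM in females and between 19.6 and 27.9 CPM in males, and Ccl2 is high in E14.5 males and E16.5 females.

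Cxcl14 is a chemokine of fibroblasts and epithelia whose signalling receptor remains debated. Its promoter window is printed because Cxcl14 and Ackr3 differed in the same direction in both sex comparisons and in the uterus. Besides TATAAA, 3 motifs were searched on both strands. They were the AP-1 site TGANTCA (in 7.93% of all promoters), the E-box CACGTG (7.24%) and the NF-kB consensus. The Cxcl14 window holds none of the 4, so nothing is in capitals. It has 22 CpG pairs against a median of 7 over all promoters, and 62.7% G or C bases against 52.7%. The Ackr3 window has 8 CpG pairs and 54% G or C bases.
Cxcl14, minus strand, chr13:56296502-56296801: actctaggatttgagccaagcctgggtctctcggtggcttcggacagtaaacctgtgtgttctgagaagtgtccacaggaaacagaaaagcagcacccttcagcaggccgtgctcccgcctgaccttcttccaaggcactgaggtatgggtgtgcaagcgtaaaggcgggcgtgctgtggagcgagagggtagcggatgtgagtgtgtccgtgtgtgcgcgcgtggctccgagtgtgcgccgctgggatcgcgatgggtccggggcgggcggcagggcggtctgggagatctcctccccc

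The Cxcl14 level in replicates 1, 2 and 3 was 0.802, 0.478 and 0.507 CPM in E14.5 females and 1.81, 1.17 and 1.52 CPM in males of the same age. E16.5 levels were 2.25, 2.83 and 2.73 CPM in females and 7.68, 11.5 and 9.47 CPM in males. The 4 groups do not overlap, in the order E14.5 females, E14.5 males, E16.5 females, E16.5 males. The female minus male difference was -1.29 at E14.5 (SE 0.268, adjusted p = 0.0083 in edgeR) and -1.87 at E16.5 (SE 0.189, adjusted p = 1.95e-06 in edgeR). Without E14.5 female replicate 3 the E14.5 difference was -1.18 with an adjusted p of 0.0509. Cxcl14 rose with age 4.31-fold in females (log2 2.11, SE 0.252, adjusted p = 1.02e-05 in edgeR) and 6.47-fold in males (log2 2.69, SE 0.203, adjusted p = 1.23e-07 in edgeR). Whether the sex difference changed with age was tested, and the value was -0.59 (95% interval -1.31 to 0.13, adjusted p = 0.324 in edgeR).

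In the uterus, the Cxcl14 level was 112, 119 and 103 CPM in Amhr2+ and 36.3, 30.9 and 31.3 CPM in Gli1+ libraries. The difference was the most precise of the members called higher in Amhr2+, 3.4-fold (log2 1.76, SE 0.0877, adjusted p = 9.25e-06 in edgeR). Epithelial markers were higher in Amhr2+ cells too, as given for Cxcl12. Of 5 mesothelial markers 2 were called higher, Krt19 and Wt1. Upk3b, Lrrn4 and Msln were not called (log2 0.19, 0.30 and -0.69). The sum of the 5, which was mostly Wt1, was 298 to 351 CPM in Amhr2+ and 180 to 213 CPM in Gli1+ libraries. Krt19 is in both lists, and the part of either cell type in the Cxcl14, Ackr3 and Cxcr4 differences was not tested. Per kilobase, Cxcl14 stood at 60.9 ± 4.39 CPM in Amhr2+ cells, above Cxcl12 at 37.5 ± 2.72 (SD, n = 3). That order depends on the exon lengths used, 1827 bp for Cxcl14 and 7160 bp for Cxcl12. In CPM it was the reverse, with means of 112 for Cxcl14 and 268 for Cxcl12. In the other 5 groups Cxcl12 ranked highest of the 9 per kilobase, from 51.5 CPM in E14.5 males to 90.6 CPM in E16.5 females. The within-library ratio of Cxcl12 to Cxcl14 per kilobase was 0.611 to 0.618 in Amhr2+ and 4.13 to 5.14 in Gli1+ libraries. In fetal libraries the ratio was 122 to 231 in E14.5 females, 52.7 to 70.4 in E14.5 males, 58.5 to 73 in females of E16.5 and 12.1 to 23.2 in the males. The fetal and the uterine libraries were made with different kits and were not tested against each other.

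Of the 9 members, 8 were called in the uterus, 3 higher and 5 lower in Amhr2+ cells, against 23.9% of all tested genes, 10.1% higher and 13.7% lower. The median of the members was -1.10 against 0.00 over all tested genes. The count fell to 4 without Amhr2+ replicate 1 or Gli1+ replicate 1, and to 5 without Amhr2+ replicate 3 or Gli1+ replicate 3. Cxcl12, Cxcl14, Ccl11 and Ackr3 were called in every alternative.

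**Figure D3:**
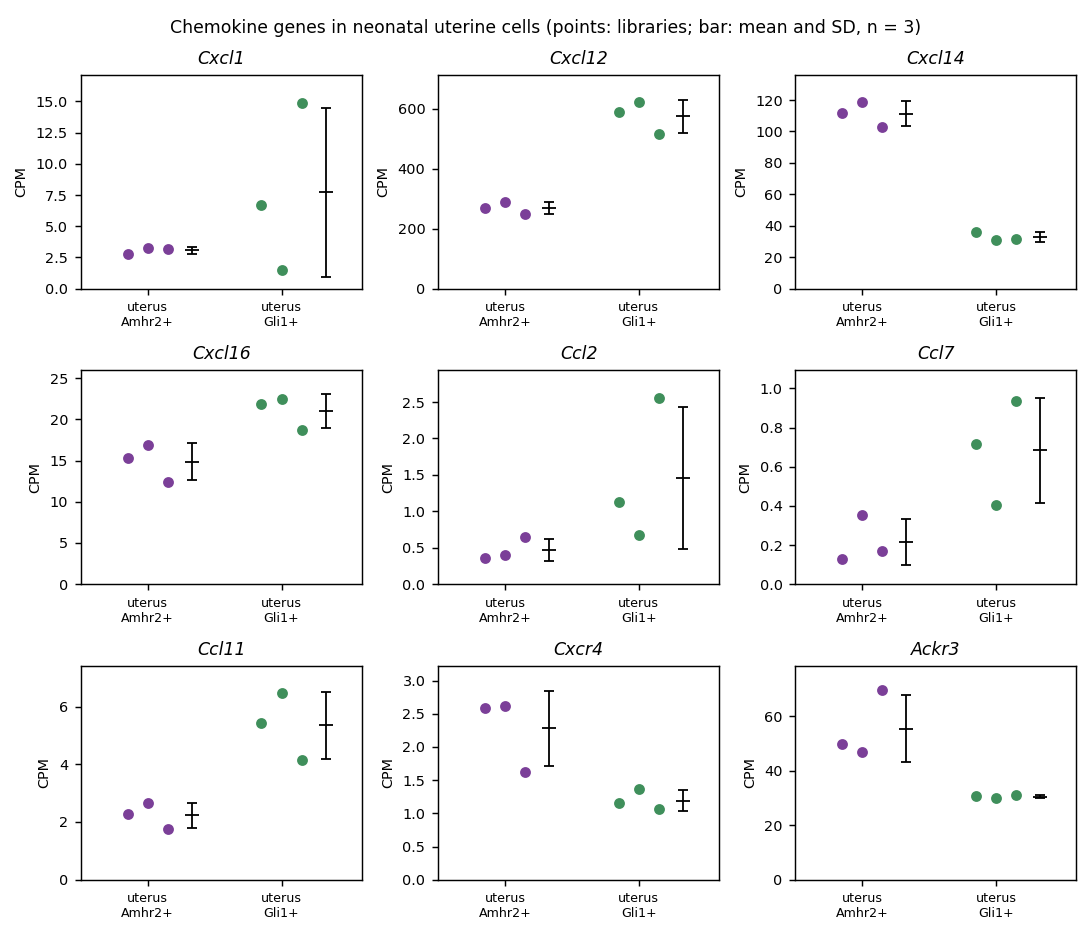
CPM (y axis, linear, from 0) of the 9 chemokine genes in 3 Amhr2+ and 3 Gli1+ libraries of neonatal uterus; points are libraries and the bar is the mean with SD. Cxcl14 is 103 to 119 CPM in Amhr2+ and 30.9 to 36.3 CPM in Gli1+, Cxcl12 has the opposite order, and Cxcl1 spans 1.49 to 14.9 CPM within Gli1+.

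Cxcl16 is made as a membrane-bound ligand of CXCR6 and is shed from the cell surface by ADAM10. The Cxcl16 gene overlaps Zmynd15 on the opposite strand, which had 54 to 233 counts in fetal and 182 to 564 in uterine libraries, so part of its counts is uncertain. Its level in replicates 1, 2 and 3 was 4.41, 3.78 and 3.8 CPM in E14.5 females and 3.03, 3.36 and 4.55 in males of the same age. E16.5 levels were 9.43, 10.9 and 9.98 CPM in females and 6.22, 5.26 and 4.86 CPM in males. The sexes overlap at E14.5 and are apart at E16.5. Cxcl16 was 1.86-fold higher in E16.5 females (log2 0.90, SE 0.147, adjusted p = 0.00028 in edgeR), a call kept in every alternative, against 0.11 at E14.5 (adjusted p = 0.779). The change of the sex difference with age was 0.78 (SE 0.219, adjusted p = 0.032 in edgeR), and that call was lost in 7 of the 12 fits that left out 1 library, with adjusted p-values up to 0.117. They were those without E14.5 female replicate 2 or 3, E14.5 male replicate 3, E16.5 female replicate 2 or 3, or E16.5 male replicate 2 or 3.

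Cxcl16 rose with age by 1.34 on the log2 scale in females (SE 0.156, adjusted p = 7.64e-06 in edgeR) and by 0.55 in males (SE 0.154, adjusted p = 0.0161 in edgeR). The male call was lost without E14.5 male replicate 1 or 2 or E16.5 male replicate 1, and in a fit of only the male libraries (adjusted p = 0.0622). In the uterus Cxcl16 was 15.3, 16.9 and 12.4 CPM in Amhr2+ and 21.9, 22.5 and 18.7 CPM in Gli1+ libraries. It was lower in Amhr2+ without overlap (log2 -0.50, SE 0.13, adjusted p = 0.0265 in edgeR). That call was lost without Amhr2+ replicate 1 or 3 or Gli1+ replicate 1 or 2, and with library size as the only scaling (adjusted p = 0.0501). Its receptor gene Cxcr6 was near the floor, with group means of 0.124 to 0.245 CPM in fetal cells, and had 0 counts in all 6 uterine libraries. Adam10 stood at 155 ± 8.57 CPM in Amhr2+ and 130 ± 8.93 in Gli1+ cells (SD, n = 3).

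Ccl2, Ccl7 and Ccl11 lie side by side on chromosome 11 within the segment from 82035571 to 82062955 of mm10. CCL2 and CCL7 attract monocytes through CCR2, and CCL11, eotaxin, attracts eosinophils through CCR3. Ccl2 and Ccl7 were low in fetal cells, at group means under 1 CPM, and the sex differences of Ccl2 and Ccl11 changed between the ages. The Ccl2 counts in replicates 1, 2 and 3 were 5, 6 and 1 in E14.5 females and 9, 34 and 20 in E14.5 males. At E16.5 the females had 47, 21 and 35 counts and the males 8, 7 and 13. In CPM, Ccl2 stood at 0.147 ± 0.103 in E14.5 females, 0.512 ± 0.247 in E14.5 males, 0.851 ± 0.318 in females of E16.5 and 0.197 ± 0.0119 in the males (SD, n = 3). Males were above females at E14.5 and below them at E16.5, without overlap at either age.

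The female minus male difference of Ccl2 was 2.08 at E16.5 (SE 0.432, adjusted p = 0.00195 in edgeR), a call kept in every alternative. At E14.5 it was -1.81 (SE 0.541) and did not pass the test, with an adjusted p of 0.062 in edgeR, against 0.0432 in DESeq2 and 0.0283 with no low-count filter. The change of the sex difference with age was 3.89 (SE 0.688, adjusted p = 0.0015 in edgeR) and was called in every alternative, with values from 3.4 to 4.37. Ccl2 rose with age in females (log2 2.52, SE 0.509, adjusted p = 0.00115 in edgeR). In males it fell by 1.37 on the log2 scale (SE 0.458, adjusted p = 0.0407 in edgeR), and that call was lost without E14.5 male replicate 2 or any of E16.5 male replicates 1, 2 and 3.

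Ccl11 in replicates 1, 2 and 3 was 1.1, 1.19 and 1.52 CPM in E14.5 females, 1.26, 2.65 and 1.62 in the males of that age, 5.41, 5.49 and 4.62 in females of E16.5 and 2.76, 2.91 and 3.38 in their male counterparts. The sexes overlap at E14.5, and at E16.5 every female library is above every male library. The female minus male difference was -0.56 at E14.5 (adjusted p = 0.231 in edgeR) and 0.77 at E16.5 (SE 0.205, adjusted p = 0.0103 in edgeR). The change of the sex difference with age was 1.34 (SE 0.321, adjusted p = 0.0131 in edgeR), called in every alternative. Ccl11 rose with age 4.06-fold in females (log2 2.02, SE 0.234, adjusted p = 7.02e-06 in edgeR) and 1.61-fold in males (log2 0.69, SE 0.218, adjusted p = 0.0325 in edgeR). The male call was lost without E14.5 male replicate 1 or 3 or E16.5 male replicate 2 or 3, and in a fit of only the male libraries (adjusted p = 0.092).

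Ccl7 failed the low-count filter in fetal libraries. It had 10, 12 and 7 counts in E16.5 females and 1 to 3 counts in each of the 9 other fetal libraries. Summed over the 3 libraries, 29 counts in E16.5 females against 6 in E16.5 males gave a depth-scaled ratio of 5.62, with an exact 95% interval of 2.29 to 16.6 for counting error only. Against the 5 counts of E14.5 females the ratio was 3.97 (1.52 to 13.1). In a fit with no low-count filter, Ccl7 was called for sex at E16.5 (log2 2.36, adjusted p = 0.0128 in edgeR) and for age in females (log2 1.95, adjusted p = 0.0488). That fit did not call it for sex at E14.5 or age in males (adjusted p = 0.727 and 0.697 in edgeR). Nor was the change of its sex difference with age called (log2 1.18, SE 1.4, adjusted p = 0.825 in edgeR).

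Of the 8 tested members, 3 were called for the change of the sex difference with age, Ccl2, Ccl11 and Cxcl16, all more positive at E16.5. Of all tested genes 10.0% were called there, 4.66% positive and 5.36% negative. The median of the members was 0.38 against 0.02.

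Immune markers moved with sex at E16.5 in the same direction as these 3 genes. Of 11 tested, 7 were higher in females and none lower, with a median log2 difference of 1.92. Csf1r, the macrophage growth factor receptor, stood at 7.71 ± 2.99 CPM in females and 2.01 ± 0.612 in males (SD, n = 3). Mrc1, a macrophage scavenger receptor, stood at 6.54 ± 2.01 and 1.72 ± 0.344 CPM (SD, n = 3). The defining leukocyte gene Ptprc was at 0.623 ± 0.358 and 0.152 ± 0.108 CPM and was not called (SD, n = 3). Summed over 12 markers the level was 38.6 to 92.7 CPM in females of E16.5 and 17.4 to 50.8 in the males, with 0 to 1 of them at 0 per library, and Cd68, a lysosomal protein of macrophages, made up much of it at means of 34.5 and 30.8 CPM. For the change of the sex difference with age, edgeR and DESeq2 each called 0 of the 11 immune markers, and 0 had an unadjusted p under 0.05 in edgeR. At E14.5, where Ccl2 was higher in each male library than in any female library, 2 immune markers were called in edgeR and 6 in DESeq2, all higher in females. The part of immune cells in the E16.5 differences of Ccl2, Ccl11 and Cxcl16 was not tested.

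In the uterus all 3 CC ligands were lower in Amhr2+ cells. Ccl11 was 2.28, 2.64 and 1.76 CPM in Amhr2+ and 5.42, 6.47 and 4.16 CPM in Gli1+ libraries, without overlap (log2 -1.26, SE 0.222, adjusted p = 0.00511 in edgeR). Amhr2+ libraries had 14, 15 and 19 counts of Ccl2, and Gli1+ libraries 38, 22 and 85 (log2 -1.65, SE 0.509, adjusted p = 0.048 in edgeR). For Ccl7 the Amhr2+ libraries had 5, 13 and 5 counts, and the Gli1+ libraries 24, 13 and 31 (log2 -1.63, SE 0.473, adjusted p = 0.0376 in edgeR). In CPM neither of them overlapped between the populations. The call of Ccl2 was lost without any of Amhr2+ replicates 1, 2 and 3 or Gli1+ replicate 1 or 3. That of Ccl7 was lost without Amhr2+ replicate 1 or 3 or Gli1+ replicate 1 or 3. Of 11 tested immune markers, edgeR called 1 there and DESeq2 called 3, all lower in Amhr2+. The edgeR call was Mrc1, at 1.78 ± 0.119 against 3.96 ± 2.14 CPM (SD, n = 3). The part of immune cells in the uterine differences was not tested.

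Cxcl1 draws neutrophils through CXCR2 and is a known target of NF-kB. Its promoter window is shown because it is the only 1 of the 5 members with a RefSeq promoter that holds the NF-kB consensus. The capitals mark 2 overlapping matches, the first starting 71 bases before the gene start. The consensus, searched on both strands, was in 8.18% of the 27025 promoters, and the whole window lies in a peak of open chromatin.
Cxcl1, plus strand, chr5:90890995-90891294: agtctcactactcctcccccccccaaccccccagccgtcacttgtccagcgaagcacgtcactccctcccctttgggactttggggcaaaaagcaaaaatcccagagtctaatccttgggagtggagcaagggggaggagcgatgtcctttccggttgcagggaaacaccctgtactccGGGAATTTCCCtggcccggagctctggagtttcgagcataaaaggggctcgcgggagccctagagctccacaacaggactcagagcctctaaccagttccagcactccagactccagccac

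The Cxcl1 level in replicates 1, 2 and 3 was 2.2, 1.75 and 1.12 CPM in E14.5 females and 2.95, 3.61 and 1.97 in males of the same age. E16.5 levels were 8.67, 3.47 and 7.45 CPM in females and 1.79, 4.51 and 8.16 in males. Uterine libraries had 2.77, 3.26 and 3.19 CPM in Amhr2+ and 6.73, 1.49 and 14.9 CPM in Gli1+. The Gli1+ group thus holds both the lowest and the highest uterine value. Only the age difference in females passed the test (log2 1.94, SE 0.583, adjusted p = 0.0258 in edgeR). It was lost with no low-count filter (adjusted p = 0.0555), and without any of E14.5 female replicates 1, 2 and 3 or E16.5 female replicate 1 or 3. In the uterus the difference was -1.32 (95% interval -3.16 to 0.51), and without Gli1+ replicate 2 it was -1.81 with an adjusted p of 0.0122 in edgeR.

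Immediate-early genes, which cells switch on within minutes of handling, varied in the same libraries. Summed over 12 such genes, the level in replicates 1, 2 and 3 was 4360, 13000 and 21700 CPM in E16.5 males and 6870, 1380 and 14300 CPM in uterine Gli1+ cells. In these 2 groups Cxcl1 followed the same order over the 3 libraries. In the other 4 groups it did not. In E16.5 females the sums were 14900, 11500 and 19700 CPM, so replicate 2 was lowest in both measures, but replicate 1 was highest for Cxcl1 and replicate 3 for the sum. E14.5 sums were 10700, 9580 and 10000 CPM in females and 10400, 13700 and 11500 CPM in males. In Amhr2+ cells they spanned 4210 to 5520 CPM. A list of 8 NF-kB response genes summed to 158, 162 and 454 CPM in Gli1+ replicates 1, 2 and 3, so its highest library was also the highest for Cxcl1. The part of handling in the Cxcl1 differences was not tested.

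**Figure D4:**
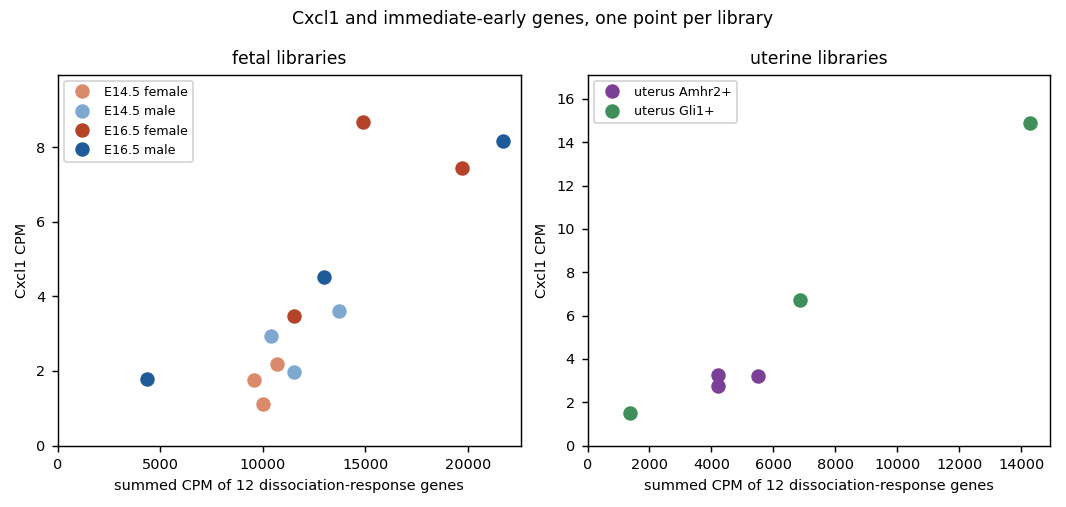
Cxcl1 CPM (y axis) against the summed CPM of 12 immediate-early genes (x axis), 1 point per library, fetal on the left and uterine on the right, colours by group. In uterine Gli1+ cells the points run from 1.49 CPM at a sum of 1380 to 14.9 CPM at a sum of 14300.

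The genes whose log2 CPM was most alike to each member over the 12 fetal libraries were ranked by Pearson's r among 11718 genes with a mean of at least 5 CPM in their highest group. These correlations are descriptions, since all points share depth, group and library. Cxcl1 was closest to Nfkbiz, an NF-kB regulator, at r = 0.95, followed by Nrg1 at 0.929 and Gcc1 at 0.919. Cxcl14 was closest to Rspo3, a Wnt agonist, at r = 0.988, followed by Arhgef3 and Igsf10, both at 0.984. Ackr3 was closest to Fbxo32, a muscle ubiquitin ligase, at r = 0.984, followed by Aatk at 0.978 and Pdgfa at 0.968. Cxcl12 was closest to Thbd, the thrombomodulin gene, at r = 0.983, followed by Hexa at 0.974 and Tbc1d9b at 0.972. Cxcl16 was closest to Rpl7a and Pgr, the progesterone receptor, both at r = 0.977, followed by Coq9 at 0.974. Ccl11 was closest to Hdac11 at r = 0.979, followed by Nfil3 and Cyth1, both at 0.971. Ccl2 and Cxcr4 had lower best values, 0.878 with Pfkfb4 and 0.854 with Plk2, and the reason was not tested.

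Beyond the members, a list of 31 other chemokine ligands had 10 tested in fetal and 9 in uterine libraries. At E14.5, edgeR called 1, Cx3cl1, higher in females, and DESeq2 called 1 higher and 1 lower. At E16.5, 4 of 10 were higher in females and none lower, among them Cxcl10, an interferon-induced ligand, at 3.27 ± 1.93 against 1.01 ± 0.414 CPM (SD, n = 3). Cxcl13, a B cell attractant, stood at 4.15 ± 0.514 CPM in females and 1.87 ± 0.419 in males (SD, n = 3). With age, edgeR called 5 as rising and 1 as falling in females, and 1 as rising and 1 as falling in males, where DESeq2 called 1 and 2. The one that fell in each sex in edgeR was Cx3cl1, fractalkine, by 1.66 (log2) in females (adjusted p = 4.88e-06 in edgeR) and by 1.22 in males (adjusted p = 0.000153). For the change of the sex difference with age, edgeR called Cxcl13, Cxcl10 and Pf4, at 1.40, 2.40 and 2.57, and DESeq2 called 2 ligands. In the uterus edgeR called 1 of 9, lower in Amhr2+, and DESeq2 called 1 higher and 1 lower. The edgeR call was Cxcl13, at 0.441 ± 0.178 CPM in Amhr2+ and 5.35 ± 0.621 in Gli1+ cells (SD, n = 3), a log2 difference of -3.56 (adjusted p = 9e-05 in edgeR). Cxcl5, a neutrophil attractant named after its values were seen, missed the threshold in edgeR at 2.05 ± 1.29 against 0.639 ± 0.299 CPM (SD, n = 3; log2 1.66, adjusted p = 0.0511).

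Of 21 other chemokine receptors, 10 were tested in fetal and 5 in uterine libraries. The receptors of the member ligands Cxcr2, Ccr2 and Ccr3 were not among them, with group means of at most 0.158 CPM. At E14.5, Cx3cr1 was higher and Ackr1 lower in females. At E16.5, 2 were higher and 1 lower in females, with Cx3cr1, the fractalkine receptor, at 3.13 ± 0.447 against 0.848 ± 0.134 CPM (SD, n = 3). Ackr1, an atypical receptor of venule endothelium and red cells, stood at 2 ± 0.47 CPM in females and 8.93 ± 1.37 in males (SD, n = 3; log2 -2.16, adjusted p = 3.95e-07 in edgeR). Ackr1 therefore differed in the same direction as Ackr3. The sums of 9 endothelial markers at E16.5 were 71.6 to 84.3 CPM in females and 86.5 to 96.1 in males, but single markers went both ways. Of the 8 tested, edgeR called Tie1 and Emcn higher and Cdh5 and Kdr lower in females. The part of endothelium in the Ackr1 difference was not tested. With age, 4 receptors rose in females and 3 in males, and none fell. In the uterus 1 of 5 was called, the scavenger Ackr4, at 17.8 ± 4.32 CPM in Amhr2+ and 8.22 ± 1.25 in Gli1+ cells (SD, n = 3; log2 1.11, adjusted p = 0.00461 in edgeR).

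Genes that process chemokines or carry their signal, 11 of 12 tested, had 0 calls for sex at E14.5 in edgeR and in DESeq2, and 1 with an unadjusted p under 0.05 in edgeR. At E16.5, 2 were higher and 3 lower in females. With age 4 rose and 5 fell in females, and 2 rose in males. In the uterus 3 were higher and 2 lower in Amhr2+ cells. The one past 2-fold was Dpp4, a peptidase that cuts and inactivates CXCL12, at 21.4 ± 8.26 CPM in Amhr2+ and 8.13 ± 2.11 in Gli1+ cells (SD, n = 3; log2 1.39, adjusted p = 0.0162 in edgeR).

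Open chromatin was available as 1 list of 71040 ATAC-seq peaks for all ATAC-seq samples together, with no height or sample. It thus gives places and no group difference. Those samples were females and males of E14.5 and E16.5, with 2 libraries per group, and none came from uterus. Of the 9 members, 8 had a peak within 1000 bp of the gene start, against 79.0% of 17836 tested fetal genes, with rows that repeat a symbol left out. The exception was Ccl2, whose nearest peak was 2159 bp away, at chr11:82032845-82033412, upstream of the gene. Within 250 bp the count was again 8, against 73.5%, and within 5000 bp it was 9, against 87.8%. The Cxcl1 peak at chr5:90890903-90891505 spanned the start and covered all 300 bases of the promoter window. Peaks covered 182 bases of the Ackr3 window, 175 of the Cxcr4 window and 79 of the Cxcl12 window, and none of the Cxcl14 window, whose peak at chr13:56295969-56296466 began inside the gene. Ackr3 had 4 peaks within 5000 bp of its start and Cxcr4 had 3.

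**Figure D5:**
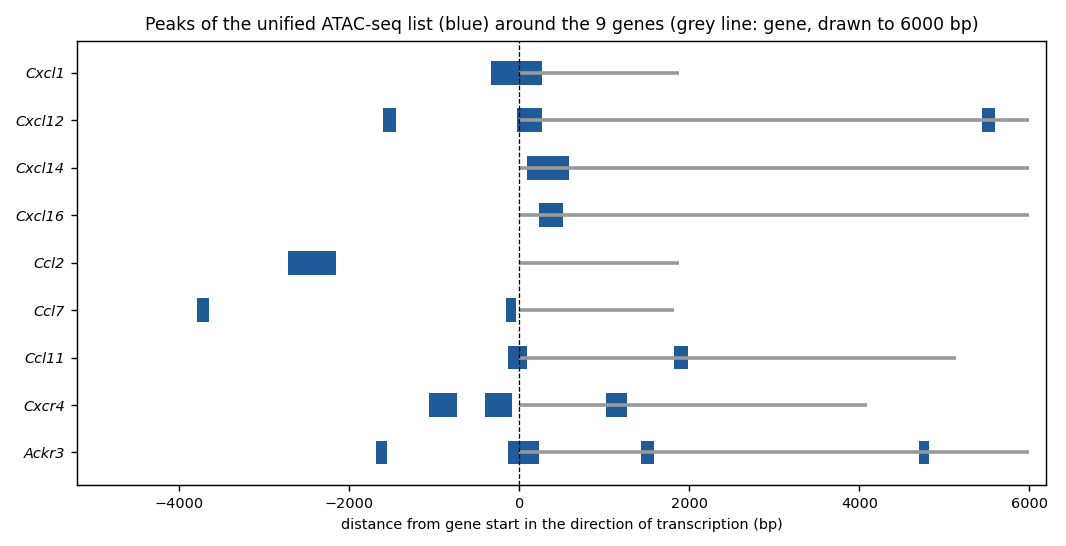
Peaks of the ATAC-seq list (blue boxes) around the starts of the 9 chemokine genes, by distance from the start in the direction of transcription in bp (x axis); grey lines are the genes, longer ones cut near the right edge. Only Ccl2 has no peak within 1000 bp of its start.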

How the data were processed

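RNA-seq of sorted cells was deposited by the authors as raw counts per gene, with 1 column per library and gene positions on mm10, per the file headers. The submitters' processing notes list STAR 2.5, Subread 1.5.0-p1 and featureCounts for the series, without their settings. Per the labels' protocols the fetal kit was non-stranded and the uterine kit stranded. The use of strand in counting is not given in the sources used here, so genes that overlap others are uncertain. The deposited ATAC-seq file is 1 unified list of peak positions, with Bowtie 1.2 and MACS2 2.1.1 among the tools noted, and holds no score.

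Groups and replicate numbers came from sample titles. The members and gene lists were chosen with earlier results of these data known. Under R 4.3.3, edgeR 4.0.16 fitted each of the 2 count tables by itself. Genes passing filterByExpr were scaled by TMM and tested with the robust quasi-likelihood test, with Benjamini-Hochberg adjustment at 0.05. One model of 4 group means served all fetal contrasts. Intervals are 95% from the fit. Replicates of a group differed by more than counting noise, with chi-square values per gene of 3.6 to 91. Per-kilobase levels used the exon union of GENCODE genes. Promoters were matched by symbol for 5 of the 9 members, Cxcl1, Cxcl12, Cxcl14, Cxcr4 and Ackr3, and for Cxcl16, Ccl2, Ccl7 and Ccl11 none is shown. Alternatives were DESeq2 1.42.0, other scalings, no low-count filter, a replicate block, a fit of only the 6 libraries compared, each library left out, and other peak windows. On simulated counts with 200 genes changed 2-fold, the edgeR step was checked before use.

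Same-numbered libraries were checked as pairs by the correlation of their deviations from group means. Female and male libraries of E16.5 gave 0.115 to 0.396, above the limit of 0.1, against -0.34 to 0.108 for other numbers. The E16.5 numbers may therefore be pairs, on the data alone. The main fit did not pair libraries, so the sex values are unpaired except where the replicate block is named. In the other comparisons at least 1 same-numbered correlation was under the limit. Female and male libraries of E14.5 gave 0.0504 to 0.0725, all under the limit but above the -0.0434 to -0.00731 of other numbers.

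Other chemokine genes were mainly named where the adjusted p was under 0.05, the fold at least 2 and the level at least 1 CPM in either group. Not every gene that passed is named, as for Ccl27a with age in females (log2 1.39, adjusted p = 0.000264 in edgeR). Cx3cl1 at E14.5 (log2 0.61) and Pf4 (group means up to 0.706 CPM) are named although they fall outside that rule. Marker lists with values in the text are mesenchyme, smooth muscle, immune, endothelium, epithelium, mesothelium, erythroid, immediate-early and NF-kB response genes.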

Additional observations from a re-analysis of the deposited data

Results flagged for a closer look

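For 3 ligands the sex difference changed between E14.5 and E16.5 by a direct test of that change in edgeR, over 12 libraries. Ccl2 changed by 3.89 on the log2 scale (SE 0.688, adjusted p = 0.0015), from higher in all 3 male libraries at E14.5 to higher in all 3 female libraries at E16.5. Ccl11 changed by 1.34 (SE 0.321, adjusted p = 0.0131), with all 3 female libraries above all 3 male libraries at E16.5 and the sexes overlapping at E14.5. Cxcl16 changed by 0.78 (SE 0.219, adjusted p = 0.032), and its call was lost in 7 of the 12 fits that left out 1 library.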

How the results depend on the processing

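Of 619 member values under the alternatives, 550 kept their direction and their side of the threshold, 51 lost a call, 11 gained one and 7 changed sign. All 7 sign changes were in differences not called, with 1 library left out. Over those fits the Cxcr4 sex difference at E16.5 ran from -0.07 to 0.29, the Cxcr4 age difference in males from -0.07 to 0.28 and the Cxcl12 change of the sex difference with age from -0.11 to 0.11. Counts of called members with 1 library left out ran from 1 to 3 for sex at E14.5, 3 to 4 for age in males and 4 to 8 in the uterus, and a fit of only the 6 male libraries called 3 for age in males. Counts over all genes ran from 553 to 1678 for sex at E14.5, 1335 to 2687 for the change with age and 1949 to 3521 in the uterus. The cause was not tested, beyond each such fit having fewer libraries. With the replicate block, 5901 genes were called for sex at E16.5 against 4883 without it, and every member kept its side of the threshold there. With the block, Ccl2 at E14.5 gained a call for sex (adjusted p = 0.0217), Ackr3 gained one for the change with age (0.0136) and Ccl2 lost one for age in males (0.0804), and the block changed no other member call. Counts of Ccl2, Ccl7 and Cxcr4 were low. Differences in them smaller than their intervals, which also hold the spread between libraries, were not detectable here.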
